A study of Bos taurus with 12 samples.

Results

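The genes of MHC class I antigen presentation were followed in day 16 bovine conceptuses and in fibroblasts. They were all probe sets of the array that carry exactly 1 gene symbol and whose symbol is B2M, BOLA, TAP1, TAPBP, PSMB8 or PSMB9. The rule found 6 genes on 8 probe sets, of 9155 named genes on 24016 probe sets in all. B2M had 3 probe sets and each of the other genes had 1. The choice rested on the names and used no measured value.

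AI conceptuses grew from in vivo embryos and IVP conceptuses from embryos fertilized and cultured in vitro. Those of the SCNT group grew from embryos made by somatic cell nuclear transfer, in which an oocyte receives the nucleus of a body cell in place of its own. All embryos of these groups were transferred to recipient cows on day 7 and recovered on day 16 as elongated conceptuses of similar length. The fourth group, FB, held the fibroblasts that had served as nuclear donors for the SCNT embryos, and each group had 3 arrays. The labels give no genotype, breed or treatment beyond the origin of the embryos. They also leave unsaid if the 3 arrays of each group are different animals, pools or repeats, and how many donor lines the fibroblasts represent. The p-values therefore measure only the spread among these arrays, some of which may be technical.

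An MHC class I molecule is a heavy chain joined to the invariant light chain beta-2-microglobulin, with a short peptide held in the groove of the heavy chain. The peptides are cut from proteins of the cell by the proteasome, whose catalytic subunits are exchanged for immunoproteasome subunits in cells of the immune system and after exposure to interferon gamma. The transporter TAP carries them into the endoplasmic reticulum, where tapasin and several chaperones load them. Trophoblast, the outer layer of the conceptus that meets the uterus, is known in many mammals for restricting class I on its surface. The bovine trophoblast at this stage secretes interferon tau, the signal by which a pregnancy is recognized.

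Signals are on the log2 scale on which the table was deposited, with a floor at 2.42. The lower limit of a usable signal was taken as log2 4, a level that 26.5% to 27.7% of probe sets exceeded on an array. Arrays of the same group correlated at 0.978 or above, and conceptus arrays with fibroblast arrays at 0.539 or below (Pearson's r across probe sets, which are not independent). The tissue labels were compared with marker genes. Of 6 trophoblast marker genes, 5 had a mean above log2 4 in each conceptus group and 0 in FB. Of 10 fibroblast marker genes, 8 did in FB and 1, THY1, in each conceptus group, so FB is treated as fibroblasts, although its tissue label reads elongated embryo as for the other arrays. Spike-in signals, a measure of hybridization, were high on AI 2, IVP 2 and IVP 3, at 8.24 to 8.30 against 7.35 to 7.75 on the other conceptus arrays. On the FB arrays they were 6.93 to 7.19, below every conceptus array. The number of arrays limits the precision: the median standard error of a difference was 0.16 between conceptus groups and 0.14 against FB.

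The light chain gene B2M was higher in IVP and SCNT conceptuses than in AI conceptuses, and higher again in the donor fibroblasts. Its brightest probe set by mean over all arrays read 7.10, 7.73 and 5.61 on the AI arrays, 8.57, 9.72 and 9.24 on the IVP arrays, and 8.37, 9.28 and 8.64 on the SCNT arrays. The fibroblast arrays read 11.97, 11.88 and 11.96. Every IVP and SCNT array lay above every AI array and below every FB array, while the IVP and SCNT arrays overlapped. The group means were 6.81 ± 1.09 for AI, 8.76 ± 0.47 for SCNT, 9.18 ± 0.58 for IVP and 11.94 ± 0.05 for FB (SD, n = 3 each). In bulk tissue, fewer cells of a type that holds a transcript and less of that transcript per cell cannot be told apart.

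In limma's test across all probe sets that exceeded log2 4 on 3 or more arrays, B2M was 3.86-fold higher in SCNT than in AI conceptuses on its brightest probe set (95% interval 1.85 to 8.08, adjusted p = 0.0133). It was 5.14-fold higher in IVP than in AI (2.46 to 10.7, adjusted p = 0.00806). These comparisons share the same 3 AI arrays and are not independent of each other. The difference of SCNT from IVP was -0.41 log2 units, with an interval from -1.48 to 0.65 (adjusted p = 0.776); this interval takes in both no difference and a B2M level 1 log2 unit lower in SCNT. Among all 6892 probe sets tested between conceptus groups, 1.78% had a larger absolute difference than this probe set in SCNT against AI and 0.667% in IVP against AI.

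The 3 probe sets of B2M target transcripts of the same gene and are not replicates of each other. On the second brightest the AI arrays spanned 4.97 to 7.69, the IVP arrays 8.11 to 9.63, the SCNT arrays 7.79 to 8.85 and the FB arrays 10.65 to 10.89. On the dimmest the corresponding ranges were 4.74 to 6.17, 6.78 to 7.63, 6.30 to 7.61 and 9.95 to 10.06. The order of the groups was the same on all 3 probe sets, with no overlap of AI with the other groups and overlap of IVP with SCNT. The rise in SCNT over AI was 4.06-fold (1.62 to 10.1, adjusted p = 0.0294) on the second brightest and 2.38-fold (1.28 to 4.43, adjusted p = 0.0424) on the dimmest. The rise in IVP over AI was 5.32-fold (2.13 to 13.3, adjusted p = 0.0196) and 2.95-fold (1.58 to 5.50, adjusted p = 0.0241) on the same probe sets. The SCNT to IVP differences were -0.39 (-1.71 to 0.93) and -0.31 (-1.21 to 0.59) log2 units.

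**Figure D1:**
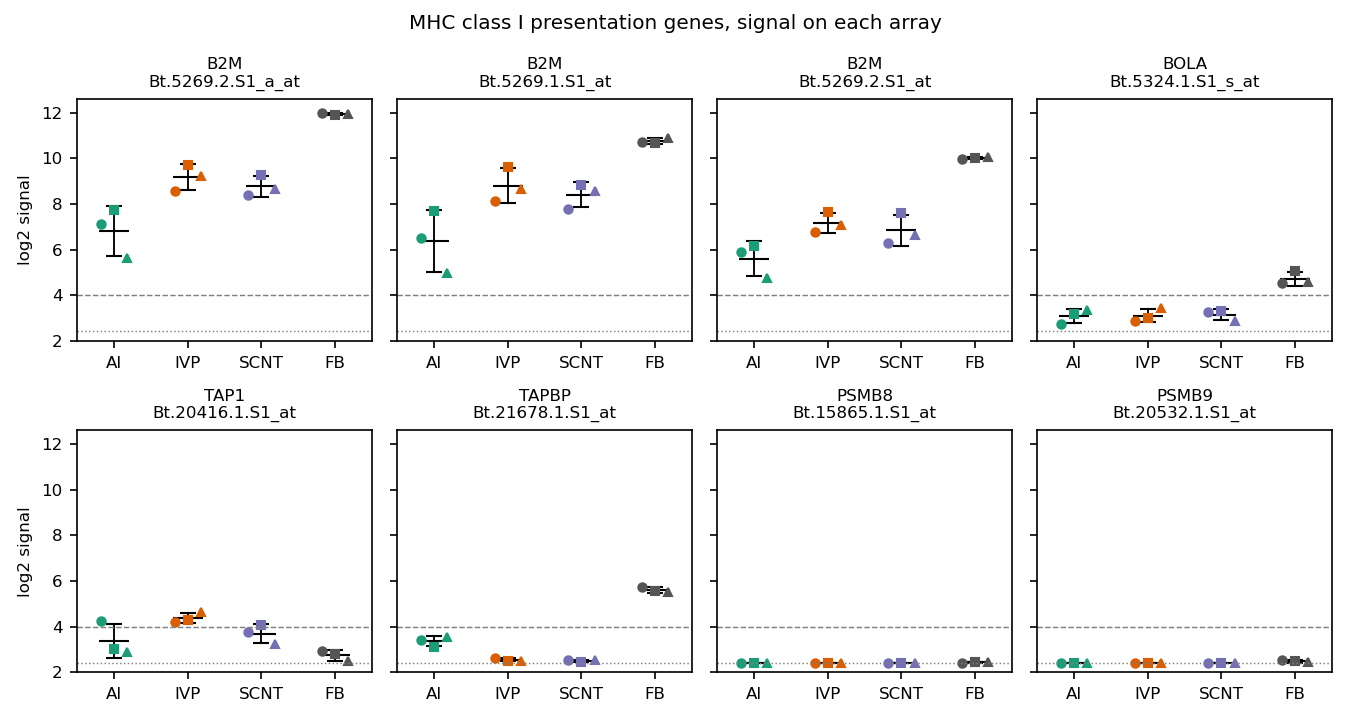
Log2 signal of each of the 8 probe sets of the class I genes on each of the 12 arrays, by group (AI, IVP, SCNT and FB, 3 arrays each). Points are single arrays (marker shape gives the replicate number), bars are group means with SD, and the dashed and dotted lines mark log2 4 and the floor. The 3 B2M panels stand in order of brightness. On the brightest B2M probe set the AI arrays lie between 5.61 and 7.73 and the FB arrays between 11.88 and 11.97, while PSMB8 and PSMB9 stay near the floor of 2.42 in every group.

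The spread of B2M within the AI group was wide. AI 3 had the low value on all 3 probe sets, and AI 2 the high one. Without AI 3 the differences on the brightest probe set were 1.35 log2 units for SCNT and 1.76 for IVP, against 1.95 and 2.36 with all arrays, and without AI 2 they were 2.41 and 2.82. The call for SCNT on this probe set ended without SCNT 2 (1.69 log2 units, adjusted p = 0.0571), and the call for IVP held whichever single array was left out (adjusted p from 0.00643 to 0.0269). Both calls ended when probe sets near the floor were kept in the fit, with unchanged differences and adjusted p = 0.159 for SCNT and 0.126 for IVP. The calls on the other B2M probe sets were less steady. In SCNT against AI both ended without AI 1, AI 3, SCNT 2 or SCNT 3, and without AI 3 the differences were 1.31 (adjusted p = 0.0769) and 0.82 (adjusted p = 0.131). In IVP against AI the second brightest lost its call without AI 1, AI 3 or IVP 2 (adjusted p up to 0.06), and the dimmest without AI 3, IVP 2 or IVP 3 (adjusted p up to 0.0746). With a trended and robust variance the SCNT calls of both ended (0.0542 and 0.0546), and with probe sets near the floor kept so did all 4 calls (adjusted p from 0.206 to 0.289).

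Hybridization moved with B2M in part, and RNA quality was read beside it. Within the AI group AI 2 had both the high spike-in signal (8.30) and the high B2M value, and AI 3 both the low spike-in signal (7.35) and the low B2M value. Within IVP, IVP 2 was high and IVP 1 low on both. With the spike-in signal as a covariate, a setting added after the data were seen, B2M on the brightest probe set was 2.30 log2 units higher in SCNT (adjusted p = 0.00164) and 1.70 higher in IVP (adjusted p = 0.0154) than in AI. On the dimmest probe set the IVP call ended in that fit (1.12, adjusted p = 0.0762). In that fit the SCNT to IVP difference changed sign to 0.60 (adjusted p = 0.671). Without AI 2, IVP 2 and IVP 3 the IVP difference was 2.21 (adjusted p = 0.0712), a fit with 1 IVP array that is assumed to vary like the other groups. The gap in signal between the 3' and the 5' probe sets of GAPDH, which grows as RNA degrades, was 0.35 to 0.89 on the IVP arrays, 0.28 to 0.45 on SCNT, 0.21 to 0.38 on AI and 0.01 to 0.06 on FB. Within AI it ran opposite to B2M, at 0.38 on AI 3 and 0.21 on AI 2. With that gap as a covariate the IVP difference on the brightest probe set was 2.37 (adjusted p = 0.0632), and the IVP calls on the other two ended as well (0.0987 and 0.137), as did the SCNT call on the dimmest (0.0629).

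Leukocytes carry much B2M, so leukocyte markers were read beside it. Whether leukocyte content bears on the B2M differences was not tested. Of 12 such genes, 3 had a mean above log2 4 in AI, 2 in each of IVP and SCNT, and 1 in FB. The mean over the list ran from 3.63 to 3.96 on the AI arrays and 2.64 to 2.99 on IVP. It ran from 2.64 to 2.93 on SCNT and 2.76 to 2.78 on FB. The 3 that were tested between conceptus groups, ITGB2, RAC2 and CD48, were all called lower in SCNT and in IVP than in AI. Of all tested probe sets 27.6% and 17.9% were called in these comparisons. CD48 entered the tests through the AI arrays alone, so its difference is a description. PTPRC, CD52, CORO1A, TYROBP and CSF1R, which are expressed across or within the leukocyte lineages, lay at the floor in every group. LCP1, CD3E and CD14 lay below log2 4 in every group. LAPTM5 went another way, at 2.43 to 2.44 on the conceptus arrays and 6.07, 5.81 and 5.96 in FB. Of 10 MHC class II genes and 7 endometrial genes, 0 had a mean above log2 4 in any group. Of 5 erythroid genes, the globin genes HBA, HBB, HBE1 and HBG lay at the floor in all groups. ALAS2 of heme synthesis had a mean of 6.80 in AI and lay below log2 4 elsewhere.

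Against the fibroblasts, B2M was lower in every conceptus group. FB exceeded AI by 34.9-fold (17.4 to 69.8, adjusted p = 6.05e-07), SCNT by 9.03-fold (4.51 to 18.1, adjusted p = 4.25e-05) and IVP by 6.78-fold (3.39 to 13.6, adjusted p = 0.000141) on the brightest probe set. On the other probe sets the excess was 20.7-fold and 21.3-fold over AI, 5.12-fold and 8.94-fold over SCNT, and 3.90-fold and 7.20-fold over IVP. With the GAPDH gap as a covariate the call for IVP on the second brightest ended (-1.68 log2 units from FB, adjusted p = 0.196). In order of level the groups thus ran AI, then SCNT and IVP, then FB, and the neighbours SCNT and IVP did not differ beyond their spread.

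Counted over all class I probe sets, 4 of 8 were tested between conceptus groups, the 3 of B2M and that of TAP1. In SCNT against AI, 3 of the 4 were higher and 0 lower, where 27.6% of all tested probe sets were called in either direction. In IVP against AI, 3 were higher and 0 lower, against 17.9% called overall. All 3 belong to B2M, so each count stands for 1 gene. In SCNT against IVP, limma called 0 of the 4 and 0 had an unadjusted p under 0.05, with 0.58% called overall. The median difference of the 4 was 1.60 in SCNT against AI and 1.96 in IVP against AI, beside medians of 0.08 and 0.02 over all probe sets.

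Against FB, 6 probe sets of 4 genes were tested. In AI 0 were higher and 5 lower, where 77.2% of all tested probe sets were called. In IVP 1 was higher and 5 lower (78.7% called overall), and in SCNT 1 was higher and 5 lower (79.9% called overall). With so large a share of all probe sets called, the number of calls among these 6 is near the background. BOLA and TAPBP, 2 of the 5 lower, passed the filter only through the FB arrays and so had to differ. TAP1, the 1 higher, passed it only with the help of IVP arrays. The counts therefore support nothing about the 6 genes together. The AI, IVP and SCNT comparisons share the FB arrays.

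**Figure D2:**
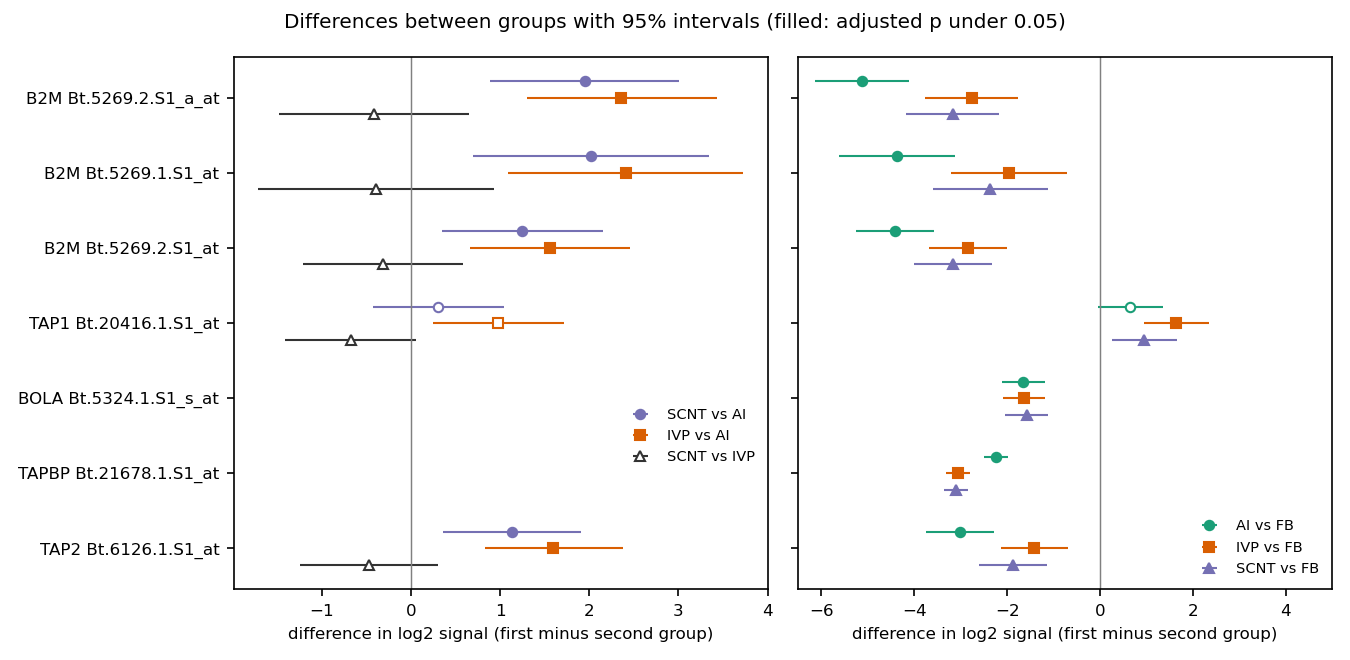
Differences in log2 signal between conceptus groups (left) and between each conceptus group and FB (right) for the tested probe sets of B2M, TAP1, BOLA and TAPBP, with TAP2 for comparison. Bars are 95% intervals and filled points have an adjusted p under 0.05 in limma. BOLA and TAPBP were tested through FB alone, so their points are descriptions. So are those of TAP2 against AI on the left, where TAP2 passed the filter only through IVP and SCNT arrays. TAP1 passed the filter only with the help of IVP arrays, so its points for IVP are descriptions too. All B2M intervals for SCNT against AI and IVP against AI lie above 0 and all B2M intervals against FB lie below 0.

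Heavy chain signals were below log2 4 in the conceptuses on nearly all probe sets and above it in FB on a few. The probe set of BOLA read 2.73, 3.18 and 3.34 in AI, 2.88, 2.99 and 3.42 in IVP, and 3.27, 3.31 and 2.89 in SCNT. The fibroblast arrays read 4.54, 5.08 and 4.57. All conceptus arrays lay below log2 4 and overlapped between the 3 groups, whereas every FB array lay above them. Where a group's mean was below log2 4 its arrays below 4 were set to 4, so that a fold is a lower bound. FB was at least 1.66-fold higher than each of AI, IVP and SCNT, a description only, since BOLA entered the tests through FB alone. The differences between conceptus groups were not tested, since the probe set stayed below the filter there.

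Another probe set with a single heavy chain symbol, BOLA-N, had a mean of 2.42 in each of the 4 groups, with no excess in FB. Cattle carry several class I heavy chain genes that differ between haplotypes, and 20 further probe sets list several class I symbols each. They are not counted among the 6 genes and no gene can be named from them, but they bear on the same chain. In AI, IVP and SCNT 0 of the 20 had a mean above log2 4, with top group means of 3.02, 3.59 and 2.64, and only 1 of 180 conceptus values exceeded log2 4. In FB 3 of the 20 did. Of these, the brightest in FB read 8.63, 8.26 and 8.52 in FB. Its conceptus values were 3.17, 3.20 and 2.69 in AI, 3.17, 4.12 and 3.47 in IVP, and 2.60, 2.62 and 2.69 in SCNT. FB was at least 22.2-fold higher than AI, at least 21.6-fold higher than IVP and at least 22.2-fold higher than SCNT. The other two were at least 2.61-fold and at least 1.18-fold higher in FB than in each conceptus group. These 3 entered the tests through FB, where they are high, so their folds are descriptions too. The remaining 17 stayed below log2 4 on all arrays, FB included, so they carry no comparison between the groups.

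**Figure D3:**
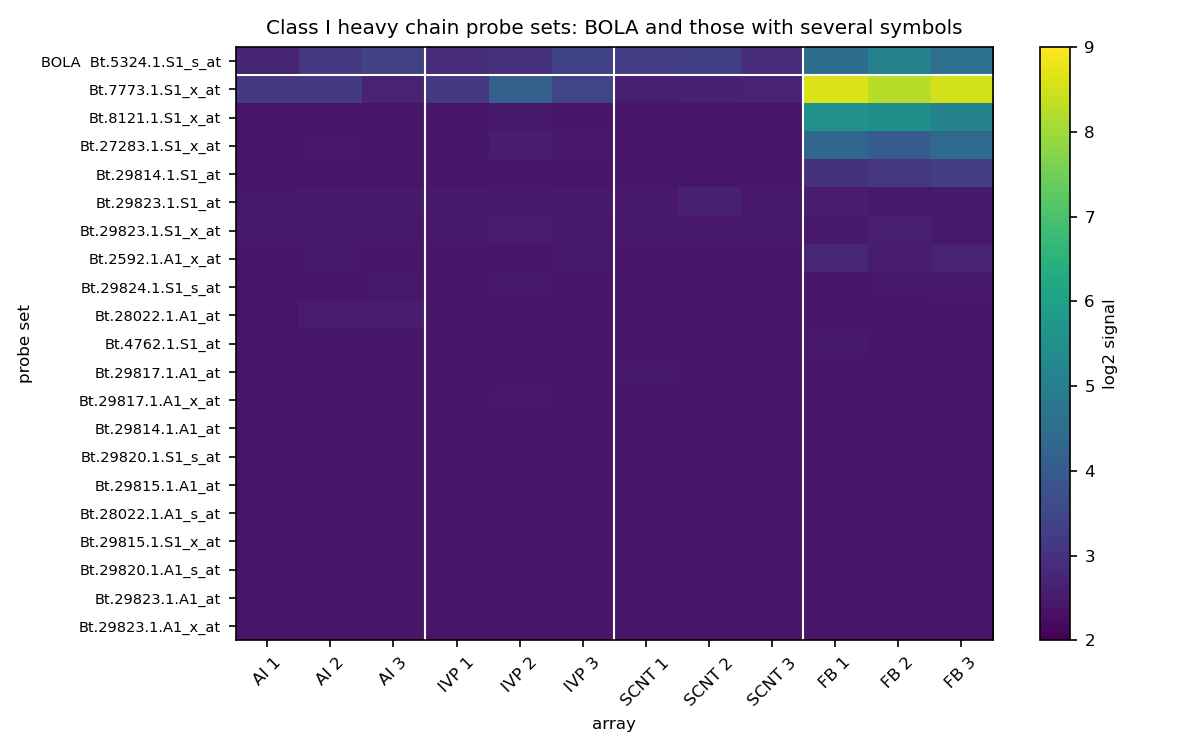
Heat map of log2 signal (colour) on each of the 12 arrays (columns, by group) for BOLA (top row) and the 20 probe sets that list several class I heavy chain symbols (rows). The conceptus columns stay dark on every row, with group means of 3.59 or less, while the FB columns exceed log2 4 on BOLA and on 3 of the 20, reading 8.26 to 8.63 on the brightest.

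FCGRT, a class I-like chain that also pairs with B2M and carries immunoglobulin G, was low in the conceptuses as well. Its values were 3.36, 3.15 and 3.89 in AI, 3.11, 3.05 and 2.82 in IVP, 3.03, 2.84 and 3.05 in SCNT, and 7.12, 7.17 and 7.06 in FB. FB was at least 8.67-fold higher than each conceptus group, a description only, since FCGRT entered the tests through the FB arrays alone. Of 9 class I-like chain genes looked for, 3 had a probe set of their own, and MR1 and MIC1 lay below log2 4 in every group. The rise of B2M in IVP and SCNT conceptuses was thus measured beside heavy chain and class I-like probe sets whose conceptus means all lay below log2 4.

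The transporter is a pair of TAP1 and TAP2. TAP1 read 4.25, 3.03 and 2.90 in AI, 4.20, 4.30 and 4.64 in IVP, 3.79, 4.07 and 3.25 in SCNT, and 2.95, 2.80 and 2.49 in FB. It was the only one of the 6 genes with a lower mean in FB than in every conceptus group. All IVP arrays lay above all SCNT and FB arrays, while AI overlapped with each other group. TAP1 exceeded log2 4 on 3 IVP arrays, 1 AI array, 1 SCNT array and 0 FB arrays. Without IVP arrays, where it is highest, it would not have entered the tests, so its differences between IVP and other groups are descriptions. In IVP against AI the difference was 0.98 log2 units (0.25 to 1.72), with an unadjusted p of 0.0131 and an adjusted p of 0.064, so it did not pass. It passed without AI 1 (1.41, adjusted p = 0.00926) and in the fit of all 12 arrays (adjusted p = 0.0467). In SCNT against AI it was 0.31 (-0.42 to 1.04, adjusted p = 0.519), and in SCNT against IVP -0.67 (-1.41 to 0.06, adjusted p = 0.431).

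Against FB, TAP1 was at least 1.30-fold higher in IVP (1.64 log2 units, adjusted p = 0.000521), a description since its entry into the tests rested on IVP arrays. That call ended with the GAPDH gap as a covariate (adjusted p = 0.0652). It was 0.96 log2 units higher in SCNT (adjusted p = 0.0154), where both means lay below log2 4 and no fold is given. That call ended without SCNT 2 (adjusted p = 0.0646), without FB 3 (0.0504), with probe sets near the floor kept (0.071) and with the GAPDH gap as a covariate (0.125). In AI against FB the difference of 0.65 did not pass (adjusted p = 0.0818), but it passed without AI 2 (adjusted p = 0.0493), without AI 3 (0.0289) and after quantile normalization (0.0492).

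TAP2, its partner, is not among the 6 genes and followed another order. Its values were 3.98, 3.28 and 2.80 in AI, 4.65, 4.87 and 5.35 in IVP, 4.0, 5.21 and 4.26 in SCNT, and 6.51, 6.30 and 6.30 in FB. All AI arrays lay below all IVP and SCNT arrays, and all FB arrays above them, as for B2M. TAP2 was at least 1.94-fold higher in IVP than in AI (adjusted p = 0.0114 in limma) and at least 1.40-fold higher in SCNT (adjusted p = 0.035). It exceeded log2 4 on 0 AI arrays, 3 IVP arrays and 2 SCNT arrays. TAP2 thus entered these tests only through groups where it is high, so its differences from AI are descriptions. The SCNT call ended without AI 2, AI 3, SCNT 2 or SCNT 3, with adjusted p up to 0.128. It also ended with the replicate block (0.0515), with the GAPDH gap as a covariate (0.0602), without AI 2, IVP 2 and IVP 3 (0.107) and with probe sets near the floor kept (0.253). The IVP call held whichever array was left out but ended without AI 2, IVP 2 and IVP 3 (adjusted p = 0.243), with the GAPDH gap as a covariate (0.142) and with probe sets near the floor kept (0.14). FB was at least 5.17-fold above AI, 2.67-fold above IVP (1.61 to 4.41) and 3.68-fold above SCNT (2.23 to 6.10). Compared with FB, the mean of TAP1 was thus higher and that of TAP2 lower in IVP and SCNT conceptuses. For TAP1 the means in SCNT and FB (3.70 and 2.74) lay below log2 4. Its calls in IVP and in SCNT both ended with the GAPDH gap as a covariate. In the ARS-UCD2.0 gene table PSMB8, TAP1 and PSMB9 are direct neighbours, 2 protein-coding genes lie between TAP2 and TAP1, and B2M is on another chromosome.

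TAPBP encodes tapasin, which holds the empty class I molecule beside the transporter. It read 3.43, 3.12 and 3.55 in AI, 2.63, 2.51 and 2.51 in IVP, 2.54, 2.45 and 2.54 in SCNT, and 5.75, 5.57 and 5.52 in FB. FB stood above all conceptus arrays, and the AI arrays did not overlap with those of IVP and SCNT, all at levels below the limit. FB was at least 3.05-fold higher than each conceptus group, again a description, since TAPBP entered the tests through FB alone. Between conceptus groups TAPBP was below the filter. With probe sets near the floor kept, limma called it lower than in AI in SCNT (-0.86, adjusted p = 0.0138) and in IVP (-0.81, adjusted p = 0.0253). The fit of all 12 arrays called both too (0.000321 and 0.000684). Its means of 3.37 ± 0.22, 2.55 ± 0.07 and 2.51 ± 0.05 for AI, IVP and SCNT all lay below log2 4, where no fold is given.

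The rest of the peptide loading list held 7 genes with a probe set, of which 4 were tested. TAP2 was the 1 gene that rose in SCNT and in IVP against AI, and CALR, CANX and PDIA3 did not pass. This share of 1 in 4 is near the 27.6% and 17.9% called over all probe sets, so it is no result about the list. The median of the 4 was 0.06 in SCNT and -0.04 in IVP, beside 0.08 and 0.02 over all probe sets. CANX and PDIA3, a chaperone and a disulfide isomerase that fold many glycoproteins, were higher than in FB in all conceptus groups, by 1.49-fold to 1.76-fold and by 1.68-fold to 2.25-fold. The chaperone gene CALR was 2.59-fold higher in AI and 2.40-fold higher in SCNT. Both calls ended with probe sets near the floor kept (adjusted p = 0.0561 and 0.076). In IVP its difference of 0.38 did not pass (adjusted p = 0.421). It passed there without IVP 3 (1.03, adjusted p = 0.000704) and with the GAPDH gap as a covariate (1.84, adjusted p = 0.0194). The call of PDIA3 in SCNT ended without SCNT 2 and with probe sets near the floor kept (adjusted p = 0.0739), and that in IVP with the GAPDH gap as a covariate (0.0597). The tapasin relative TAPBPL and the peptide-trimming aminopeptidases ERAP1 and ERAP2 lay below log2 4 in all groups.

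The immunoproteasome subunits PSMB8 and PSMB9 were not detected above the limit in any group. PSMB8 read 2.42 on all 9 conceptus arrays and 2.42 to 2.47 in FB. PSMB9 read 2.43 on all conceptus arrays and 2.44 to 2.56 in FB. Neither was tested, and their values have no order at the floor. The third inducible subunit, PSMB10, read 3.24 to 3.36 in the conceptuses and 5.52, 5.40 and 5.36 in FB, which was at least 2.69-fold higher than each conceptus group. PSMB10 too entered the tests through FB alone, so no p is given.

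The constitutive subunits that these replace were well above the limit everywhere. PSMB6 read 9.17, 9.22 and 9.24 in AI and 9.71, 9.57 and 9.53 in SCNT, and was 1.31-fold higher in SCNT (1.10 to 1.56, adjusted p = 0.0274). PSMB7 read 8.15, 8.14 and 8.42 in AI and 8.80, 8.54 and 8.71 in SCNT, and was 1.36-fold higher (1.10 to 1.68, adjusted p = 0.0353). Neither pair of groups overlapped, but both calls ended without AI 1 or without SCNT 1, among other arrays (adjusted p up to 0.106). The call of PSMB6 also ended with the replicate block (0.0542). That of PSMB7 ended with probe sets near the floor kept (0.0906) and with the GAPDH gap as a covariate (0.0507). PSMB5 did not pass (0.15, adjusted p = 0.401). Of the 6 tested proteasome genes 2 were thus higher in SCNT than in AI, 0 passed in IVP against AI by limma, where PSMB6 and PSMB7 had unadjusted p of 0.037 and 0.0449, and 0 passed in SCNT against IVP. The share of 2 in 6 is near the 27.6% called over all probe sets, so it is no result about the proteasome. The list's median was 0.17 and 0.16 in SCNT and IVP against AI, beside 0.08 and 0.02 over all probe sets. Against FB, PSMB5 was 1.52-fold higher in AI, 1.58-fold in IVP and 1.68-fold in SCNT. PSMB6 was 1.35-fold higher in IVP and 1.47-fold in SCNT, and PSMB7 was 1.37-fold higher in IVP and also passed as higher in SCNT, while neither passed in AI (adjusted p = 0.0955 and 0.264). The call of PSMB7 in IVP ended with the GAPDH gap as a covariate (adjusted p = 0.0576).

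PSME1 and PSME2 encode the proteasome activator that interferon gamma induces. Both were higher in FB, PSME1 by 2.28-fold over AI, 3.05-fold over IVP and 3.06-fold over SCNT, and PSME2 by 1.95-fold, 2.33-fold and 2.08-fold. On its brightest probe set POMP, which encodes a proteasome assembly factor, was 1.34-fold higher in FB than in AI and did not pass in IVP or SCNT. Its other probe set had means of 7.46 in AI, 7.23 in IVP, 7.49 in SCNT and 8.62 in FB. Every FB array lay above every conceptus array there, and no test of it is given. In all, 1 of the 7 tested proteasome genes was higher and 4 were lower in AI than in FB. In both IVP and SCNT 3 were higher and 3 lower. Over all probe sets 77.2%, 78.7% and 79.9% were called in AI, IVP and SCNT against FB. The counts lie near these shares and are no result about the proteasome. The lower genes include PSMB10, which entered the tests through FB alone. Between conceptus groups PSME1, PSME2 and POMP did not pass on their brightest probe sets. PSME1 was at 5.69 ± 0.15 in AI, 5.26 ± 0.27 in IVP and 5.26 ± 0.15 in SCNT (adjusted p = 0.0987 and 0.0765 against AI). In the fit of all 12 arrays limma called it lower than in AI in SCNT (0.0376) and in IVP (0.0486). Without IVP 3 it did so too (0.0436 and 0.0363), and with the GAPDH gap as a covariate in SCNT (0.0285).

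Regulators of class I transcription gave little signal. Of 14 genes looked for, 9 had a probe set and 3 were tested between conceptus groups, of which limma called 0 in each comparison. Over all probe sets 27.6% were called in SCNT against AI, 17.9% in IVP against AI and 0.58% in SCNT against IVP. With 3 genes tested, 0 calls are no result about the list. NFYB, a subunit of the factor that binds the CCAAT motif, was at 5.51 ± 0.16 in AI, 5.53 ± 0.12 in IVP and 5.55 ± 0.09 in SCNT, and was 1.70-fold to 1.74-fold higher than in FB. RELA, a subunit of NF-kappa B, was at least 2.78-fold higher in FB than in each conceptus group. Of 23 genes that interferons induce, 16 had a probe set and 0 had a mean above log2 4 in a conceptus group, so 0 were tested there. This stood beside signals of 13.09 to 13.42 for the interferon tau gene IFNT2, a member of a family whose transcripts may share probes. In FB, 3 of the 16 were above log2 4. IFI6 was at least 2.66-fold, IFIT5 at least 5.01-fold and IFI35 at least 1.06-fold higher there than in each conceptus group. RELA and these 3 entered the tests through the FB arrays, where they are high, so these folds are descriptions.

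The 5 genes whose values over the 9 conceptus arrays were most like those of the brightest B2M probe set were DNASE1L3, FILIP1L, TSPAN2, SCARB1 and TAP2. Likeness was the root mean square difference in log2 units after each gene was centred on its own mean, over 4348 genes. It was 0.54 for DNASE1L3, 0.55 for FILIP1L, 0.59 for TSPAN2, 0.59 for SCARB1 and 0.62 for TAP2, beside a median of 1.20 over all genes and 0.23 and 0.42 for the other B2M probe sets. These arrays share the group differences, so the measure finds genes with the same steps between groups.

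DNASE1L3, which encodes a secreted DNase, read 6.22, 6.57 and 5.50 in AI, 9.05, 8.73 and 8.44 in IVP, and 8.65, 8.75 and 8.29 in SCNT. It lay at the floor in FB, unlike B2M. The mean of FILIP1L was 4.18 in AI, 6.10 in IVP and 5.94 in SCNT, and that of the tetraspanin gene TSPAN2 was 3.88, 5.47 and 5.42. The lipoprotein receptor gene SCARB1 had means of 5.58, 7.65 and 7.81. In FB these 3 had means of 3.56, 2.97 and 4.86, each below the AI mean of the same gene. Of the 5 genes only TAP2 shared with B2M a higher mean in FB than in every conceptus group.

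**Figure D4:**
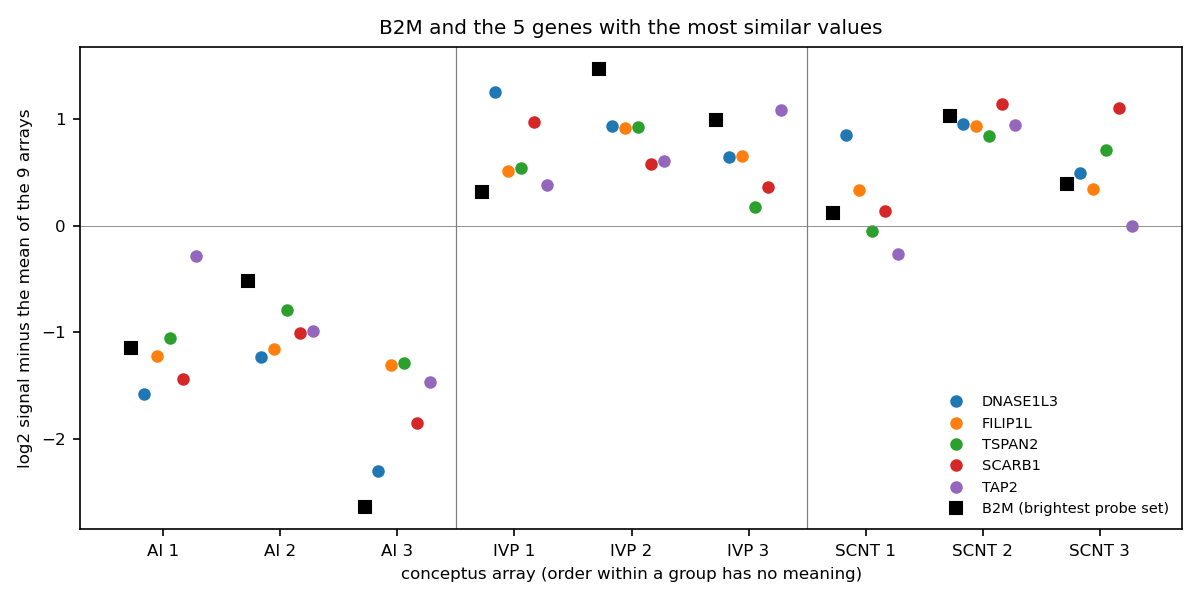
Log2 signal on the 9 conceptus arrays, each gene centred on its own mean over these arrays, for the brightest B2M probe set (black squares) and the 5 genes with the smallest root mean square difference from it (0.54 to 0.62 log2 units). Arrays are placed by group and replicate number, which has no order. All 6 genes lie below 0 on every AI array, and B2M lies above 0 on every IVP and SCNT array.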

How the data were processed

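RNA of 12 samples was labelled and hybridized to Affymetrix bovine arrays, per the labels' protocols. The deposited table holds log2 signals, which the authors made with GCRMA, with limma also named, per the submitters' processing notes. Their versions and the set of arrays normalized jointly are not given in the sources. The floor was 2.42 and the top value 13.66, and 36.8% of values were no more than 0.01 above the floor, where levels cannot be ordered. After 112 control probe sets were left out, 24016 remained: 13292 with 1 symbol in the array annotation, 86 with several and 10638 with none. For 7 of the 8 class I probe sets the gene ID was found in the ARS-UCD2.0 table, used only for neighbours. No sequences are shown.

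The deposited values were used as they stand. Probe sets that exceeded log2 4 on 3 or more arrays entered the tests, 6892 over 9 conceptus arrays and 8164 over all 12, with limma 3.58.1 in R 4.3.3, 1 coefficient per group, 6 and 8 residual degrees of freedom, two-sided tests and Benjamini-Hochberg adjustment over all tested probe sets. A change is an adjusted p under 0.05. The brightest probe set by mean over 12 arrays stands for a gene. Of each pathway list the counts are given, with values of up to 4 called genes per comparison; of marker lists, mainly counts above log2 4. The likeness rule names 5 genes. The genes, lists and settings were chosen with earlier results of these data known. The procedure was tested on simulated data. Replicate numbers were not taken as pairs: deviations of same-numbered arrays correlated between -0.15 and 0.21 over 18 pairs. Alternatives were other filters, scalings, variance models, covariates, a replicate block, other sets of arrays, another limit for folds and the omission of each array.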

Additional observations from a re-analysis of the deposited data

How the results depend on the processing

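Over 24 settings, 601 values of the class I probe sets were recomputed: 555 stayed on the same side of the threshold, 37 lost a call, 9 gained one and 0 called values reversed. Differences that were not called could change sign and still count among the 555. On the brightest B2M probe set, SCNT against IVP ran from -0.72 to 0.60 log2 units. The causes of the changes below were not tested. With no filter on low signals, 1 class I probe set was called in SCNT against AI and 1 in IVP against AI, in place of 3 each. In both it was that of TAPBP, lower than in AI at levels below log2 4. The B2M differences of 1.95 and 2.36 were no longer called. All calls fell to 984, 484 and, in SCNT against IVP, 7 (from 1902, 1234 and 40). A trended, robust variance left 1 class I call in SCNT against AI. The GAPDH gap as a covariate left 0 in IVP against AI (B2M 2.37), with 502 calls in all and 8 in SCNT against IVP. Omitting AI 2, IVP 2 and IVP 3 left 0 there (B2M 2.21), with 415 and 3 calls in all. Fitting all 12 arrays gave 5 class I calls in IVP against AI, those of B2M and TAP1 as higher and that of TAPBP as lower. That fit gave 127 calls in SCNT against IVP. The spike-in covariate gave 5 calls in SCNT against IVP, and the replicate block gave 23 there. The block changed no call of the 6 genes but ended those of TAP2 and PSMB6 in SCNT against AI (adjusted p = 0.0515 and 0.0542). Omitting 1 array at a time gave 0 to 3 class I calls in SCNT against AI (0 without SCNT 2, and 1 without AI 1, AI 3 or SCNT 3), 1 to 3 in IVP against AI (1 without AI 3 or IVP 2), 3 to 6 in AI against FB and 3 to 6 in SCNT against FB, where BOLA and TAPBP drop below the filter once an FB array is missing. The B2M difference then ran from 1.35 to 2.41 in SCNT and from 1.76 to 2.82 in IVP against AI, and all calls from 1167 to 1929 (1167 without SCNT 2), 671 to 1220 (671 without AI 3) and, in SCNT against IVP, 7 to 68. With the limit for folds at log2 3.5 the lower bound for BOLA rose from 1.66 to 2.35 and that for TAPBP from 3.05 to 4.27 or more. Signals near the floor limit BOLA, TAP1, TAPBP, PSMB8 and PSMB9 in the conceptuses.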
